A study of Mus musculus with 8 samples.

Results

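The genes of the AP-1 transcription factors were examined for nearby WFS1 peaks in C2C12 cells, a mouse myoblast line. The set held 8 genes, Fos, Fosb, Fosl1, Fosl2, Jun, Junb, Jund and Atf3, of 21938 protein-coding genes on chromosomes 1-19, X and Y. Every peak with its nearest edge within 100 kb of a member gene was taken, which gave 72 of the 22292 peaks of the combined set. The genes were chosen by a result of the same lists, since the AP-1 site TGACTCA had been seen in an excess of the peaks. Peak numbers near them are therefore a description without a test.

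WFS1 is a transmembrane protein of the endoplasmic reticulum and nuclear envelope. The proliferating wildtype cells were crosslinked with DSG and formaldehyde, and chromatin was precipitated with a WFS1 antibody. The chromatin was sonicated for 30 cycles, and a part of the precipitate was sonicated for 6 further cycles, 36 in all. The 30-cycle list held 18283 peaks and the 36-cycle list 12674, of which 58 and 43 were within 100 kb of a member. Each condition has 1 library from the same immunoprecipitation, so the lists are not replicates and no test was possible. The experiment holds 8 libraries, and 6 of them, the inputs and the libraries of WFS1 knockout cells with WFS1-FlagTag, were not used here. The lists give positions without signal or score, so the sequencing depth is unknown and intervals (95% Wilson) cover counting error over peaks only. Positions are on GRCm38, counted from 1.

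AP-1 is a dimer of basic leucine zipper (bZIP) proteins of the Fos, Jun and ATF families that binds the palindrome-like site TGACTCA, also called the TPA response element. Fos and Jun are the classic immediate-early genes, which growth factors and stress induce through kinase cascades without new protein synthesis. Jun proteins can pair with each other, whereas Fos proteins need a Jun partner, and in myoblasts AP-1 activity is known to accompany proliferation and to oppose differentiation.

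The sequences below are shown because they are the AP-1 sites of peaks in both lists outside untranslated regions, and of a peak with a pair of sites. A site in a joined peak need not be covered by both lists. The Fosl1 intron site was covered by the 30-cycle list alone. The other Fosl1 site, Jun at 49.5 kb and Jund at 74.1 kb were covered by the 36-cycle list alone. Each was read from the GRCm38 reference, with TGACTCA or its reverse complement in capitals. A match is a run of letters and not a measured binding site.
Jun, 49.5 kb upstream (chr4:95102039-95102119, plus strand): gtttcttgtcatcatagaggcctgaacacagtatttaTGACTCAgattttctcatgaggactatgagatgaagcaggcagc
Jun, 53.2 kb upstream (chr4:95105531-95105611, plus strand): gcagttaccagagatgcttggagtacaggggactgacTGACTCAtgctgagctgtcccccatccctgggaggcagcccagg
Fosl1, 16.9 kb upstream (chr19:5430013-5430093, plus strand): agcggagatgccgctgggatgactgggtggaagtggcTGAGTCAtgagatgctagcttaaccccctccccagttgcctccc
Fosl1, intron (chr19:5448818-5448898, plus strand): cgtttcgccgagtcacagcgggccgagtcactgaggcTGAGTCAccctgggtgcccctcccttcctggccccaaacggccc
Fosl2, 45.9 kb upstream (chr5:32089681-32089761, plus strand): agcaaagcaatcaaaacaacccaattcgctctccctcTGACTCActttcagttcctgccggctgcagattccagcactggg
Fos, 95.8 kb downstream (chr12:85569828-85569908, plus strand): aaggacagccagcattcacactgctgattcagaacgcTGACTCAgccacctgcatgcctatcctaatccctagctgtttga
Jund, 55.6 kb upstream (chr8:70643147-70643227, plus strand): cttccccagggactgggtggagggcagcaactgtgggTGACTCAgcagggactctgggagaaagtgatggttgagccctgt
Jund, 15.9 kb upstream (chr8:70682900-70682980, plus strand): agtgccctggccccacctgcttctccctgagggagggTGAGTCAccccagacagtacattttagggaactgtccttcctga
Jund, 74.1 kb downstream (chr8:70773057-70773137, plus strand): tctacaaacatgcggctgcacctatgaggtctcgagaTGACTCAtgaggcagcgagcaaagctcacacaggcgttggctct
Fosb, 6.55 kb upstream, a pair of sites (chr7:19316761-19317026, minus strand): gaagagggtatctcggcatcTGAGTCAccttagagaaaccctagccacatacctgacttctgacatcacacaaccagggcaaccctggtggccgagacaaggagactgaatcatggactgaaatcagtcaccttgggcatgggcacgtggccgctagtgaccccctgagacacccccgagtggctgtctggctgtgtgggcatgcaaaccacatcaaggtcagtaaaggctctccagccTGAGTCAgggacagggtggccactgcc

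Combined peaks lay within 100 kb of all 8 members, as they did for 73.4% of protein-coding genes. The Fos family held 33 peaks, the Jun family 31 and Atf3 8. Jund had the most, with 16, followed by Fosl1 with 13, Fos and Jun with 10 each, Atf3 with 8, Fosl2 with 6, Junb with 5 and Fosb with 4. The median over the 8 members was 9, against 2 over all protein-coding genes, whose quartiles were 0 and 5. Jund had more peaks than 98.7% of genes, Fosl1 more than 96.8%, and Fos and Jun more than 92.9%, whereas Fosb had more than 64.0% and stayed below the upper quartile of all genes. The windows ran from 202 kb at Jund to 248 kb at Atf3, and the number of peaks per Mb ranged from 19.3 at Fosb to 79.3 at Jund. The same value over the whole genome was 8.18 per Mb and its median over all gene windows was 9.35 per Mb.

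**Figure D1:**
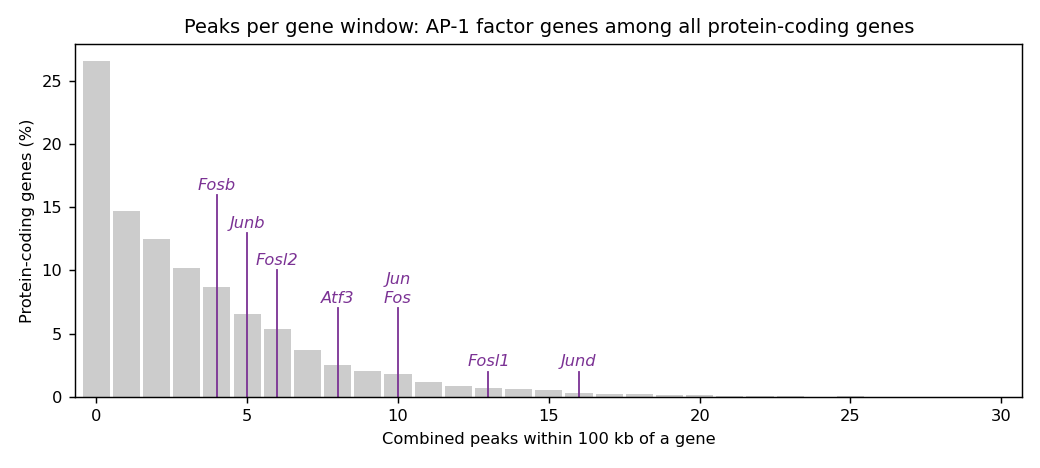
Percentage of protein-coding genes (vertical axis) with each number of combined peaks within 100 kb (horizontal axis). Purple lines mark the 8 AP-1 factor genes, from Fosb with 4 peaks to Jund with 16, and 12 genes with more than 30 peaks lie beyond the axis.

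Not every peak in a window has the member as its closest gene. The nearest gene is here the one whose protein-coding start site is closest to the peak centre. A member had the nearest protein-coding start site for 29 of the 72 peaks (40.3%, 29.7 to 51.8), and the other 43 peaks were nearer to another protein-coding gene. All 10 peaks at Jun were nearest to Jun, whose window held 1 other protein-coding start site. In contrast, only 1 of the 16 peaks at Jund was nearest to Jund, in a window with 11 other protein-coding start sites. The number of peaks in both lists was 11 of 29 (37.9%, 22.7 to 56.0) for those nearest a member and 12 of 43 (27.9%, 16.7 to 42.7) for the rest.

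**Figure D2:**
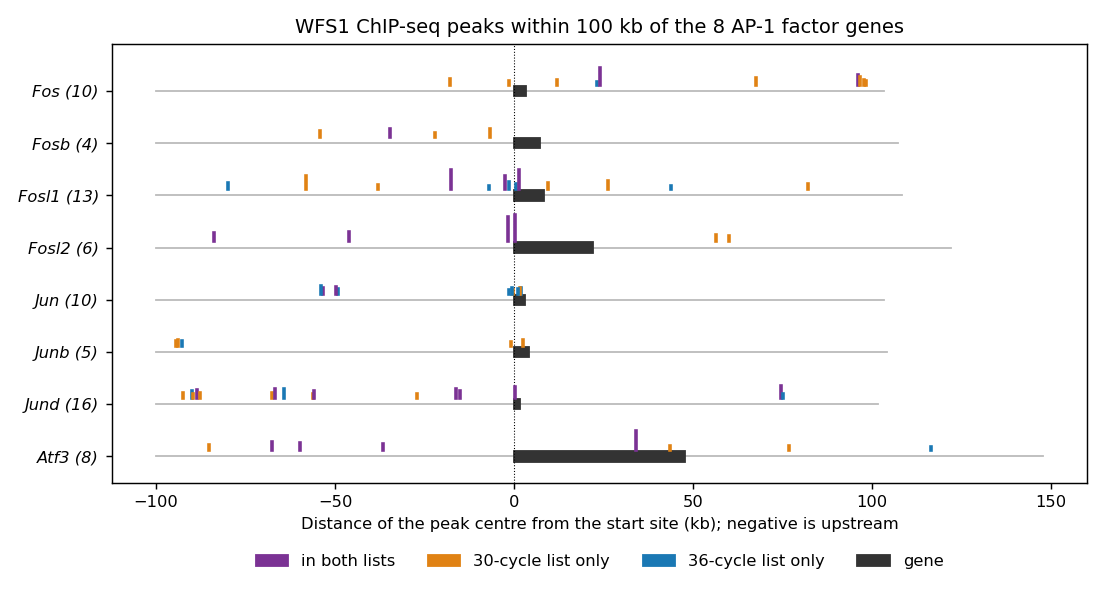
Position of each of the 72 combined peaks as the distance of its centre from the member's start site in kb, with 1 row per gene and the number of peaks in brackets. Ticks are coloured by list and their height is proportional to peak width, black boxes are the genes and grey lines the windows. Peaks at Jun form a group at the start site and a group 49.1 to 53.8 kb upstream.

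Of the 72 peaks, 23 were in both lists (31.9%, 22.3 to 43.4), 32 in the 30-cycle list only (44.4%, 33.5 to 55.9) and 17 in the 36-cycle list only (23.6%, 15.3 to 34.6). Over all combined peaks the shares were 35.4%, 45.5% and 19.1%, each inside the interval of the members' share. Jund held 7 of the 23 peaks in both lists, Fosl2 and Atf3 4 each, Fosl1 3, Fos and Jun 2 each, Fosb 1 and Junb none. Jun was the member with the most peaks of the 36-cycle list only, with 6 of its 10. Upstream of the start site lay 44 peaks, across it 2, inside the gene 8 and downstream of the gene 18. Jund gave 13 of the 44, whereas Fos had 2 upstream and 8 downstream. This split was not counted over all genes.

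The median width of the member peaks was 370 bp (95% interval 315 to 437), and that of all combined peaks was 376 bp. Peaks in both lists had a median of 577 bp, those of the 30-cycle list only 312 bp and those of the 36-cycle list only 304 bp, against 623, 324 and 255 bp over all peaks. A joined peak runs from the first to the last base of its parts and is at least as wide as the widest. This order is therefore partly set by the joining. Widths of 1000 bp or more were found for 6 of 72 peaks (8.33%, 3.88 to 17.0), against 6.42% of all peaks. These were 2 peaks of Fosl2, 2 of Fosl1, 1 of Atf3 and 1 of Fos, and all 6 were in both lists. The median GC content was 53.5% in the member peaks and 47.1% over all peaks.

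**Figure D3:**
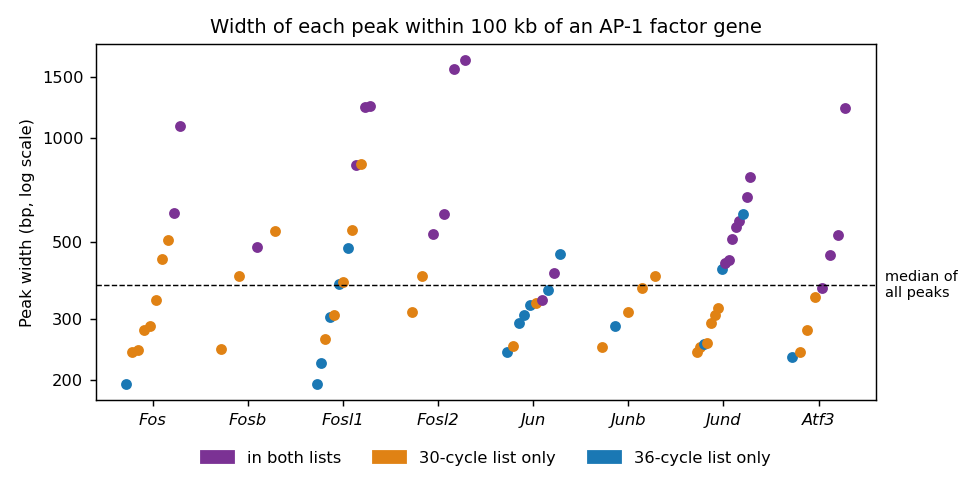
Width in bp (log axis) of each of the 72 peaks, sorted within each gene and coloured by list. The dashed line is the median of all combined peaks, 376 bp, and the peaks of 1000 bp or more, at Fos, Fosl1, Fosl2 and Atf3, are in both lists.

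Peaks close to the start sites differed between the members. A combined peak lay within 10 kb of the start site in 7 of 8 members, against 25.1% of protein-coding genes, and the exception was Atf3. A peak in both lists lay within 10 kb in 3 members, Fosl1, Fosl2 and Jund, against 9.05% of genes. A peak centred within 1 kb of the start site was present in 5 members, Fosl1, Fosl2, Jun, Junb and Jund, against 12.5% of genes. In all, 19 peaks lay within 10 kb of a member start site, 5 of them in both lists. The 36-cycle list alone had a peak within 10 kb in 4 members, Fosl1, Fosl2, Jun and Jund, whereas the 30-cycle list alone had one in 7. For either list alone the share over all genes was not counted. The 36-cycle list is also the shorter, with 12674 peaks against 18283, so these counts do not compare the members with other genes.

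In the Fos family, Fos (ENSMUSG00000021250, chr12:85473890-85477273, plus strand) encodes the founding partner of Jun in AP-1. Its closest peak was narrow, 242 bp, ended 1.27 kb upstream of the start site and was in the 30-cycle list only. No peak lay on the gene itself or on the 250 bp before its start. The widest peak of Fos, 1084 bp at chr12:85497315-85498398, lay 23.4 kb downstream of the start site and was in both lists, with 925 bp in the 30-cycle list and 759 bp in the 36-cycle list. It held no TGACTCA. At the far end, 4 peaks stood together between 95.8 and 98.2 kb downstream of the start site, of which the first, 608 bp wide, was in both lists and the other 3 in the 30-cycle list only. Their nearest protein-coding start site, and that of a peak at 67.2 kb on an exon of the lincRNA Gm32296, was Jdp2, which encodes another bZIP protein that dimerizes with Jun. The first 2 of the 4 peaks held a TGACTCA each.

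The closest peak of Fos is shown whole because it is the one peak at this start site, with the letters TGTGGT, the core of a RUNX site, and GGAATG, the core of a TEAD site, in capitals.
Fos, 1.27 kb upstream (chr12:85472381-85472622, plus strand): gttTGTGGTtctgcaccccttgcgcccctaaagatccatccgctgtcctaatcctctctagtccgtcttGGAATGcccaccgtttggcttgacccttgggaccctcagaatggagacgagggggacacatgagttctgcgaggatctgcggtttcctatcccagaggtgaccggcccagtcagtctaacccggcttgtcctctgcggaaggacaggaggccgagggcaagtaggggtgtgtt

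Fosb (ENSMUSG00000003545, chr7:19302696-19310051, minus strand) encodes a Fos paralog also induced by serum. All 4 of its peaks were upstream, with none on the gene or downstream of it. The closest, 538 bp wide and in the 30-cycle list only, ended 6.55 kb from the start site and was the widest of the 4. It held the AP-1 site at each of 2 places whose first bases were 219 bp apart, and was the 1 peak of the 72 with more than 1 such site. The next peak, 247 bp and 21.9 kb upstream, was in the 30-cycle list only. The 1 Fosb peak in both lists, 483 bp, lay 34.5 kb upstream at the start site of Ercc1, a DNA repair gene, and held a TGACTCA too. The last peak, 401 bp and 53.9 kb upstream in an intron of Ppp1r13l, was in the 30-cycle list only. TGACTCA was thus in 3 of the 4 Fosb peaks over their whole length, the highest share of any member, over few peaks. Of all combined peaks 31.2% held it. In the central 200 bp it was in 2 of the 4, against 17.9% of all peaks. Ercc1 had the nearest protein-coding start site for 2 of the 3 peaks.

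Fosl1 (ENSMUSG00000024912, chr19:5447547-5455946, plus strand) encodes FRA1, a Fos protein without a strong activation domain. Of its 13 peaks, 6 lay within 10 kb of the start site. A peak of 835 bp in both lists lay 2.1 kb upstream, with 835 bp in the 30-cycle list and 675 bp in the 36-cycle list. A 481 bp peak 1.20 kb upstream was in the 36-cycle list only, as was a 224 bp peak 6.76 kb upstream. A 304 bp peak over the first exon, 278 bp downstream of the start site, was also in the 36-cycle list only and held a TGACTCA. In the intron, 886 bp downstream of the start site, a peak of 1228 bp in both lists was made of a 1228 bp peak of the 30-cycle list and of 223 bp in the 36-cycle list within it. The 30-cycle and 36-cycle lists therefore shared this region only in part. The widest peak, 1233 bp in both lists, lay 16.9 kb upstream and joined 2 peaks of the 30-cycle list, 448 and 558 bp wide, with a 460 bp peak of the 36-cycle list across the gap between them. The TGACTCA of this peak was held by the 36-cycle peak and lay in the gap of the 30-cycle list. The remaining peak within 10 kb, 385 bp and in the 30-cycle list only, lay 9.27 kb downstream, on Ccdc85b.

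Fosl2 (ENSMUSG00000029135, chr5:32135801-32157842, plus strand) encodes FRA2. It had the widest peak near any member, 1673 bp at chr5:32135166-32136838, wider than or as wide as 99.1% of all combined peaks, and this peak lay across the start site. It was in both lists, with 426 and 1109 bp in the 30-cycle list and 359 bp in the 36-cycle list. Directly upstream lay a peak of 1577 bp, also in both lists, that ended 0.821 kb from the start site and was at the 98.8 percentile of width. It joined 772 and 680 bp of the 30-cycle list with 774 and 214 bp of the 36-cycle list. The start-site peak had a GC content of 67.0% and the upstream peak 50.8%. The start-site peak held a TGACTCA, which both lists covered, in exonic sequence just downstream of the start site used here. In the RefSeq promoter table the Fosl2 start lies 671 bp farther downstream, still within this peak, and the TGACTCA is upstream of it. Farther upstream, peaks of 602 bp at 45.9 kb and 529 bp at 83.4 kb were in both lists as well, so that all 4 peaks upstream of or at the start site were in both lists. The 2 peaks downstream of the gene, 401 and 315 bp wide, were in the 30-cycle list only.

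Exonic AP-1 sites of member genes are shown as short runs, since the surrounding letters belong to untranslated exons. Those in exons of other genes, Ercc1 near Fosb and Dhps near Junb, are not shown.
Fosl2, start site (chr5:32135843-32135871, plus strand): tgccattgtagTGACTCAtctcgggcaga
Fosl1, first exon (chr19:5447886-5447914, plus strand): agaggcgcgagTGAGTCAgaaccgcagcc

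In the Jun family, Jun (ENSMUSG00000052684, chr4:95049034-95052222, minus strand) encodes c-Jun, the partner of every Fos protein. It had 6 peaks within 2 kb of its start site, 3 over the gene and 3 upstream. The peaks were narrow, from 241 to 365 bp, and spanned 3843 bp, of which they covered 1832 bp. The distances from the start site were 1.82, 1.43 and 1.02 kb downstream and 0.291, 0.546 and 1.42 kb upstream. The peaks at 1.43 kb downstream and 0.291 kb upstream were in the 30-cycle list only, and the other 4 in the 36-cycle list only. None was in both lists, although 3 pairs of neighbouring peaks of different lists were 3, 55 and 94 bp apart. Jun was the only protein-coding gene with 6 or more combined peaks within 2 kb of its start site, which is 0.00456% of genes. That standing was chosen for description after the values were seen and depends on how peaks are joined. With peaks up to 500 bp apart joined, Jun had 3, 2 of them in both lists, and 29 genes, Jun included, had as many. The 36-cycle list alone gave 4 peaks, which 12 genes reached, and the 30-cycle list alone 2, which 460 genes reached, Jun included in both.

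**Figure D4:**
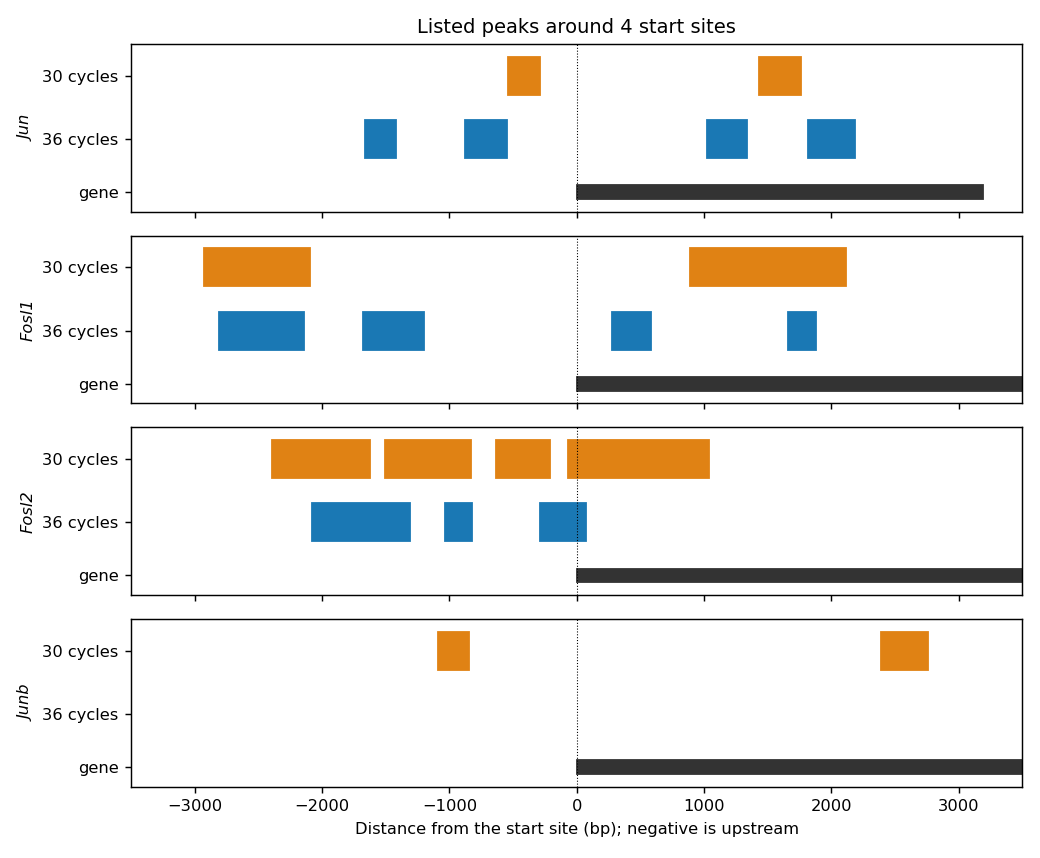
Peaks of the 30-cycle list (orange) and of the 36-cycle list (blue) within 3500 bp of 4 start sites, with position in bp along the horizontal axis and the gene as a black box. At Jun the peaks of the lists lie between each other without overlap, at Fosl2 they overlap over the start site, and at Junb only the 30-cycle list has peaks.

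The 30-cycle peak next to the Jun start is shown whole, on the strand of the gene, as the peak closest to it. The capitals mark a GC box, GGGCGG or its reverse complement, the site of SP factors.
Jun, 0.291 kb upstream (chr4:95052513-95052764, minus strand): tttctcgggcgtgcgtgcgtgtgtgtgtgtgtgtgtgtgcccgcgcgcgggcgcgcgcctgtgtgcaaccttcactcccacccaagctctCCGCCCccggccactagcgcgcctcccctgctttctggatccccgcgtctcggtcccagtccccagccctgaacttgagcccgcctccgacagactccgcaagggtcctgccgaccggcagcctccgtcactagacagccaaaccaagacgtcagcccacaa

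The 250 bp before the Jun start site, which carry the well-known AP-1-like sites of the Jun promoter, lay under no peak, and neither TGACTCA nor the cAMP response element TGACGTCA was found in them. The other 4 Jun peaks stood in an intron of Junos, the antisense gene of Jun, 49.1 to 53.8 kb upstream. The outer peaks, 293 and 461 bp, were in the 36-cycle list only. The inner peaks, 407 bp at 49.5 kb and 340 bp at 53.2 kb, were the only Jun peaks in both lists and the only ones with a TGACTCA, 1 each. The site at 49.5 kb was covered by the 36-cycle peak alone, and that at 53.2 kb by peaks of both lists.

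Junb (ENSMUSG00000052837, chr8:84974484-84978718, minus strand) encodes JUNB, a Jun protein of weaker activity at single AP-1 sites. It was the 1 member without a peak in both lists. A 250 bp peak that ended 0.844 kb short of the start site and a 370 bp peak 2.39 kb downstream of it, in an annotated exon of the gene, were in the 30-cycle list only. No peak of the 36-cycle list lay within 10 kb. The other 3 peaks, 287, 399 and 315 bp wide, lay 92.7 to 94.3 kb upstream at Dhps, which encodes deoxyhypusine synthase, and were in the 36-cycle list for the first and the 30-cycle list for the other 2. The widest of them, 399 bp, held a TGACTCA.

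Jund (ENSMUSG00000071076, chr8:70698949-70700616, plus strand) encodes JUND, the Jun protein that is present in resting cells as well. Its start-site peak, 676 bp at chr8:70698931-70699606, was in both lists, with 469 bp in the 30-cycle list and 195 and 250 bp in the 36-cycle list. It had the highest GC content of the 72 peaks, 73.4%, with 79 CpG, and held no TGACTCA. This was the only peak for which Jund had the nearest protein-coding start site, and the only one within 10 kb. Upstream, 2 peaks in both lists lay 15.9 and 14.9 kb from the start site, 577 and 445 bp wide, and were nearest to Lsm4. Farther out, 5 peaks were nearest to Gdf15, which encodes a stress-induced cytokine. A peak of 552 bp in both lists stood over an exon of Gdf15 with its centre 0.325 kb from the start site, and another, of 437 bp in both lists with an AP-1 site 21 bp from the peak centre, with its centre 10.7 kb from the Gdf15 start site. The remaining peaks in both lists were one of 510 bp near Ssbp4, 88.3 kb upstream, and the widest, 771 bp in Pik3r2, 74.1 kb downstream. Leaving Jund out, 56 peaks remained near the other members, and 28.6% (18.4 to 41.5) of them were in both lists.

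Atf3 (ENSMUSG00000026628, chr1:191170296-191218039, minus strand) encodes a stress-induced bZIP protein that pairs with Jun and often represses. It had no peak within 10 kb of the start site used here, which is the start of the longest annotated gene model. Its widest peak, 1215 bp at chr1:191183390-191184604, lay 33.4 kb inside the gene and was in both lists, with 535 bp in the 30-cycle list and 287 and 733 bp in the 36-cycle list. In the RefSeq promoter table the Atf3 start lies 34706 bp from the one used here, and the edge of this peak was 57 bp upstream of it. Counted with RefSeq starts, 4 of the 7 members in that table, Atf3, Fosl2, Jun and Junb, had a peak centred within 1 kb, against 14.0% of 16522 genes. Jund had none by that count, because its RefSeq start lies 1210 bp from the other and the start-site peak began 1.19 kb downstream. Of the 250 bp before the RefSeq start, peaks covered 194 bp at Atf3, all 250 bp at Fosl2 and no base at Fos, Fosb, Jun, Junb and Jund.

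No Atf3 peak held TGACTCA. The letters TGATGCAA, a composite C/EBP-ATF element that is known from stress-response genes, were in 3 of the 8 Atf3 peaks and in no peak of another member. Over whole peaks this is 3 of 72 (4.17%, 1.43 to 11.5), against 2.64% of all combined peaks, so the members' interval includes the value of all peaks. The first lay in the wide peak, 103 to 110 bp upstream of the RefSeq start, in the part covered by the 36-cycle list. The others lay in peaks of 369 and 460 bp, both in both lists, 36.4 and 59.4 kb upstream of the start site used here. The element at 36.4 kb was covered by peaks of both lists, and that at 59.4 kb by the 30-cycle peak alone. In the central 200 bp of the peaks the element was in none of the 72, and in 1.4% of all peaks, while 0.895% of 32851 RefSeq promoters of 300 bp held it. The 3 elements are shown with the match in capitals, since the first stands close to the RefSeq start of Atf3.
Atf3, in the wide peak (chr1:191183400-191183479, plus strand): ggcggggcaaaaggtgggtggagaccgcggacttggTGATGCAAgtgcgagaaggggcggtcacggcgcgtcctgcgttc
Atf3, 36.4 kb upstream (chr1:191254726-191254805, plus strand): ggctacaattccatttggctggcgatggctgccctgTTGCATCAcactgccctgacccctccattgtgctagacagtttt
Atf3, 59.4 kb upstream (chr1:191277822-191277901, plus strand): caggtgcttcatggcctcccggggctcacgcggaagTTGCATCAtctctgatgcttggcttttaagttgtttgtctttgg
The other Atf3 peak in both lists was 525 bp wide and 67.4 kb upstream. Of the 4 remaining, 3 were in the 30-cycle list only and 1, in an intron of Batf3, another bZIP gene, in the 36-cycle list only.

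Motifs were searched on both strands over the central 200 bp of a peak, and over windows as long, 2 kb away on either side, that overlapped no peak (42077 windows). TGACTCA was in 7 of the 72 member peaks (9.72%, 4.79 to 18.7), in 17.9% of all combined peaks and in 3.43% of the flanking regions. The interval of the members' share therefore included the value of all peaks. Of the 23 member peaks in both lists 4 held it centrally (17.4%, 6.98 to 37.1), against 20.8% of all peaks in both lists. Within whole peaks, 17 of 72 (23.6%, 15.3 to 34.6) held TGACTCA, against 31.2% of all peaks. The 18 sites lay in the windows of 7 of the 8 genes. Of these 17 peaks 11 were in both lists, and the site was covered by peaks of both lists in 7 of the 11, by the 36-cycle peak alone in 3 and by the 30-cycle peak alone in 1.

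The E-box CAGCTG, the site of MyoD, was in 15 member peaks (20.8%, 13.1 to 31.6), in 18.0% of all peaks and in 8.82% of flanks. Jund held 5 of the 15, Fos and Atf3 3 each, Fosl1 2, Fosb and Junb 1 each, and Jun and Fosl2 none. The GC box GGGCGG was in 13 member peaks (18.1%, 10.9 to 28.5), in 8.55% of all peaks and in 3.25% of flanks, and the members' interval lay above both. That interval takes the peaks as independent, although many stood close together, and the GC box was among several motifs searched. The difference was not tested. The CCAAT box was in 9 (12.5%, 6.72 to 22.1), 21.0% of all peaks and 24.9% of flanks. TGTGGT was in 17 (23.6%, 15.3 to 34.6), 24.7% of all peaks and 15.1% of flanks, whereas GGAATG was in 7 (9.72%), 15.6% and 10.6%. TGACGTCA and the CArG box, the site of SRF, were in no central part of the 72 peaks, which allows a share of up to 5.07% by the Wilson interval, and were in 0.462% and 1.02% of all peaks. A CArG box can hold a CCAAT box within it. The GC content of the member peaks was higher than that of all peaks, and its part in these shares was not tested.

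**Figure D5:**
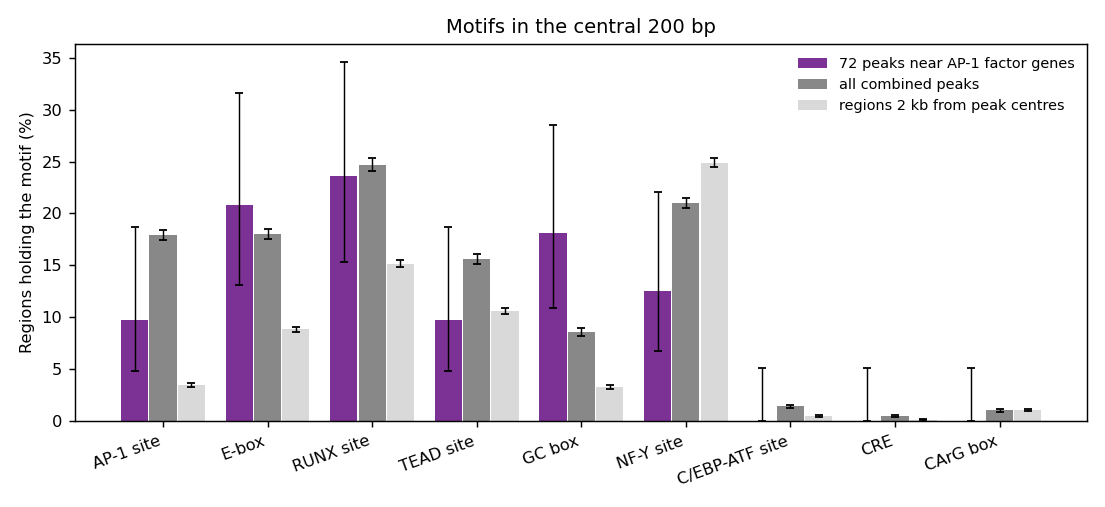
Percentage of the 72 member peaks (purple), of all combined peaks (dark grey) and of flanking regions (light grey) that hold each motif in 200 bp, with 95% Wilson intervals as bars. The members' bar for the AP-1 site stands at 9.72% and that for the GC box at 18.1%.

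The limit of 100 kb placed some peaks just outside. The farthest peaks inside lay 94.8 kb from Fos, 94.3 kb from Junb and 92.2 kb from Jund, and the nearest outside lay 101 kb from Fos and from Fosl1, 107 kb from Atf3 and 109 kb from Jun. The nearest outside Fosb, Junb and Fosl2 lay 139, 142 and 151 kb away.

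Related genes were taken from 3 lists of the same pathway. The first held 38 genes of other bZIP factors, some of which can pair or compete with AP-1 proteins. Of the 38 genes, 26 (68.4%, 52.5 to 80.9) had a combined peak within 10 kb of the start site, with a median of 5 peaks within 100 kb. Those with most peaks within 100 kb were Cebpb with 16, and Bach2 and Nfe2l2 with 14 each. Of 19 other immediate-early genes 17 (89.5%, 68.6 to 97.1) had a peak within 10 kb, with a median of 8 peaks within 100 kb, led by Dusp1 and Ier3 with 18 each and Klf6 with 16. Of 21 genes of the kinases that activate AP-1, their phosphatases, SRF and its ETS partners, 8 (38.1%, 20.8 to 59.1) had a peak within 10 kb, with a median of 3, led by Elk3 with 12, Dusp4 with 11 and Dusp6 with 9. Over all protein-coding genes the same share was 25.1% and the same median 2. Peaks near both a member and a listed gene, as between Fos and Jdp2, were counted for each.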

How the data were processed

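The data are the deposited WFS1 peak lists of 2 wildtype ChIP libraries, from 30 and 36 sonication cycles. The authors mapped reads to GRCm38 (mm10) with NextGenMap, dropped poorly mapping reads with samtools, and ran MACS2 on either library by itself. The control used in calling is not given in the sources used here. The deposited files hold peak positions (chromosome, start, end) alone, without any signal or other score.

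Lists were joined with bedtools merge (2.31.1), as in the study's methods, which joins peaks that overlap or adjoin without a gap. Distances to members run from the nearest edge of a peak to the gene or its start site, and nearest protein-coding start sites were found from the peak centre. Gene models were those of GENCODE mouse release 21 (Ensembl 96), and the 5′ end of a gene served as its start site. Promoters came from the RefSeq table on GRCm38.p6, which held 7 of the 8 members. Motifs were searched as exact letters on both strands. Shares have 95% Wilson intervals (scipy 1.17.1) and medians have binomial intervals. Joining, counting and motif search were tested on simulated data.

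With 1 library per condition nothing was tested. Members, lists and motifs were chosen with earlier results of these data known. Named are all members, their peaks within 10 kb of the start site, in both lists or widest, the 3 genes of each list with most peaks, and genes nearest to or inside a window. The 2 kb window at Jun and the RefSeq starts were chosen after their values were seen. Alternatives were other windows, joining, lists, overlaps and start sites.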

Additional observations from a re-analysis of the deposited data

How the results depend on the processing

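No paired analysis was possible because the conditions have 1 library each, and nothing here was tested. Without a score in the lists, a stricter peak threshold could not be applied, and the wider peaks of each list, those above its median width, were used in its place. The 72 peaks near the members became 41 with a window of 50 kb, 29 with only peaks nearest to a member, 36 with wider peaks and 43 with the 36-cycle list alone. The share in both lists, 31.9%, became 45.5% with peaks up to 500 bp apart joined and 22.2% when at least 50% of each peak had to be shared. The median width, 370 bp, became 483 bp after that joining and 515 bp with wider peaks. The share with TGACTCA, 9.72%, became 23.6% over whole peaks and 25.0% in the central 400 bp, where all peaks had 31.2% and 28.7%. The number of members with a peak within 10 kb, 7, became 4 with the 36-cycle list alone, and the kinase list went from 8 to 15 genes within 50 kb. At these settings the share over all genes was not counted. The 6 peaks within 2 kb of the Jun start became 2 with the 30-cycle list alone, 3 after joining and 2 with wider peaks. The other 42 values of these kinds stayed within their interval or within 1.5 times the count. Of the 48 counts for single members, 18 moved beyond that. Start sites of every transcript brought the members with a centred peak from 5 to 6, by adding Atf3. More start sites per gene can only raise such a count, and the share over all genes was not counted for them. The RefSeq starts and the Jun and Jund alternatives were chosen after the data were seen.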

Other observations

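Further bZIP genes had peaks as well. Of those given here, Jdp2 is near Fos, whereas Atf4 and Maff are on chromosome 15, where no member lies. Jdp2, the nearest protein-coding gene of 5 peaks in the Fos window, had 8 combined peaks within 100 kb, 3 of them in both lists, and 3 within 10 kb of its start site. The 8 include the 5 peaks of the Fos window. Atf4, whose product is the main activator of the stress response that induces Atf3, had 10 peaks within 100 kb, 4 of them in both lists, and 1 centred within 1 kb of its start site. Maff, a small MAF gene, had 9 within 100 kb and 3 within 10 kb. Atf4 and Maff were named after their values were seen. Over all protein-coding genes, 25.1% had a combined peak within 10 kb of the start site and 12.5% had one centred within 1 kb. In the list of other bZIP genes 2 of 38 had no peak within 100 kb, as had 2 of 21 in the kinase list and none of the 19 immediate-early genes. Among all protein-coding genes 26.6% had none.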
